A study of Mus musculus with 6 samples.

Results

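The genes described here are the CCAAT/enhancer binding protein (C/EBP) factor genes Cebpa, Cebpb and Cebpd, the lipid uptake genes Lpl and Fabp4, and the lipolysis genes Lipe and Pnpla2. They were chosen by name, with earlier results of these data known, and all 7 were found in the deposited table of 14366 genes. The table holds RNA-seq values of male mouse mesonephros at embryonic day 16.5, the tissue that carries the Wolffian duct and gives rise to the epididymis. Dissections kept the part with the mesonephric tubules. The question was what Gata2 of the mesenchyme does as the duct develops. The 3 Gata2cKO samples had the genotype Osr2Cre+;Gata2-flox/flox, and the 3 control samples had the genotype Osr2Cre+;Gata2-flox/+. All 6 therefore carried the Osr2-driven recombinase and at least 1 floxed allele, and Gata2 was to be removed only from cells that had expressed Osr2. Nothing says that the samples of a genotype are separate embryos, so each p reflects only how these samples vary, and part of that may be technical. Gene positions below are from GENCODE M21 on GRCm38.

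C/EBP proteins are leucine zipper transcription factors that bind DNA as dimers. In cultured mouse preadipocytes, C/EBPβ and C/EBPδ come on early and are followed by PPARγ and C/EBPα, which together switch on genes of lipid uptake and storage. In the same cells GATA2 and GATA3 are known to hold back fat cell formation and to bind C/EBP proteins. C/EBPβ and C/EBPδ are also induced by inflammatory and stress signals in many tissues. Lipoprotein lipase (Lpl) frees fatty acids from circulating lipoproteins, Fabp4 carries fatty acids in the cytoplasm of fat cells, capillary endothelium and macrophages, and the lipases encoded by Pnpla2 and Lipe act in sequence on stored triglyceride and diglyceride.

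Gata2 itself was at 431, 530 and 416 TPM (a transcript level scaled for gene length and library total) in Gata2cKO replicates 1, 2 and 3, against 384, 464 and 546 TPM in control replicates 1, 2 and 3. Transcripts without the floxed part would still count towards this level, so it checks no label. Osr2 was at 127 ± 9.35 TPM in Gata2cKO and 261 ± 54.1 TPM in control libraries (SD, n = 3 each). Control replicate 1 stood apart from the other controls on the second principal component (20.1 against -12.7 and -17.1) and had the highest share of mitochondrially encoded transcripts (21.9%, against 13.2% to 16.3% in the other 5 libraries). Results of the 7 genes are therefore also given without that library where it moved them. Read depth is unknown, because TPM keeps none. Markers of mesenchyme and of duct epithelium were present in all libraries, with summed levels of 10499 to 12853 TPM in Gata2cKO and 9268 to 11288 TPM in control libraries for mesenchyme, and of 1145 to 1175 TPM in Gata2cKO and 923 to 1015 TPM in control libraries for epithelium.

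Stretches before the annotated start were looked up for the 7 genes, and RefSeq (GRCm38.p6) entries were matched for 4 of them. The C/EBP factor genes among these were Cebpb and Cebpa, whose 250 bases before the start are shown because the C/EBP factors were the most abundant of the 7 genes. The Cebpb stretch is chr2:167688665-167688914 on the plus strand, and the Cebpa stretch is chr7:35119043-35119292 on the plus strand. Capitals mark matches to TGACG on either strand, a half-site of the cyclic AMP response element and a letter pattern chosen after the expression values were seen.
Cebpb: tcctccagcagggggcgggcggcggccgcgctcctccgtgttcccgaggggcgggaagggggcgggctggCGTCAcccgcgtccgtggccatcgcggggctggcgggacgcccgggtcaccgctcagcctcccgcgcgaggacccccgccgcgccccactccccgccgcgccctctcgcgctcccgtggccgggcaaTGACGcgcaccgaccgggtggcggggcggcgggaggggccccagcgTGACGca
Cebpa: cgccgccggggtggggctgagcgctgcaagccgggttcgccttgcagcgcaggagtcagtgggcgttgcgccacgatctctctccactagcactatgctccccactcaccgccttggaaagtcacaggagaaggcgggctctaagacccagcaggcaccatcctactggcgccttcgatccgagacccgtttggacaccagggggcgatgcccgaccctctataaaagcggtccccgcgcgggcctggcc
The Cebpb stretch held 3 matches to TGACG, which began 180, 53 and 7 bases before the start, the farthest on the minus strand. At least 1 such match was found in 17.8% of 32841 promoter stretches of the same length, and 3 or more in 0.688%. The Cebpa stretch held 0. The cut of 3 is the Cebpb count itself, and the stretches were not matched for G and C content, so these shares test nothing. G and C made up 81.6% of the Cebpb stretch and 66.4% of the Cebpa stretch. A search on both strands for the C/EBP pattern TTNNGNAA, which 36.85% of the stretches held, and for the GATA patterns AGATAA and TGATAA, which 16.6% held, found no match in the stretches of Cebpb, Cebpa, Pnpla2 or Lipe (the last with a pair of starts). A match is a run of letters and not a measured site, and its absence covers only these windows.

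None of the 7 genes passed the threshold between Gata2cKO and control libraries, an adjusted p under 0.05 by limma with Benjamini-Hochberg adjustment over the 12300 genes tested. Of the tested genes 7.47% passed it, 5.73% higher and 1.74% lower in Gata2cKO. At an unadjusted p under 0.05 there were 2 of the 7, Lpl and Cebpd, against 27.4% of tested genes, which is close to the same share. The authors' deposited table also gave 0 of the 7 at an adjusted p under 0.05 (13.3% of its 14366 genes) and 2 at an unadjusted p under 0.05. The log2 fold change, taken as Gata2cKO minus control of log2(TPM + 1), was positive for the 3 C/EBP factor genes and both uptake genes and negative for both lipase genes. Its median was 0.41 over the 7 genes and 0.052 over all tested genes, of which 59.5% were positive. With 7 genes chosen by name, these shares describe the genes and test nothing.

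In Gata2cKO libraries the order of mean TPM was Cebpb, Cebpd, Cebpa, Pnpla2, Lpl, Fabp4 and Lipe, and it was the same in control libraries. Cebpb was above 96.8% of the listed genes by its mean over the 6 libraries and Lipe above 35.5%. Neighbours in the order had ranges that did not overlap, except Fabp4 and Lipe in both groups and Cebpd and Cebpa in controls. The plot of the 7 genes by library shows these levels.

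**Figure D1:**
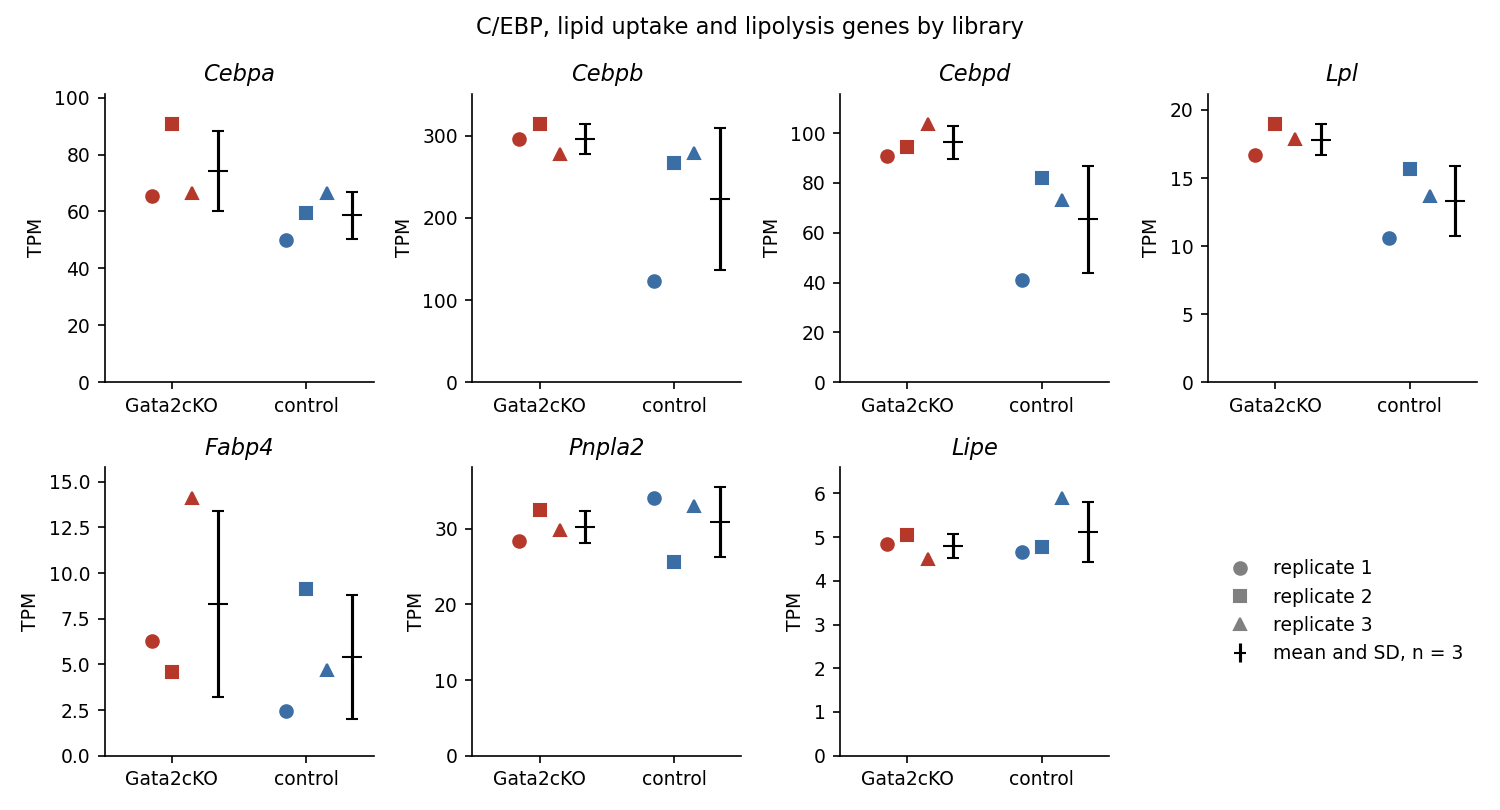
TPM of the 7 genes in each library, with a panel for each gene, Gata2cKO on the left (red) and control on the right (blue). Symbols mark replicates 1 to 3, and bars show the mean and SD (n = 3 each). Control replicate 1 (blue circle) was the lowest of the 6 libraries for Cebpa, Cebpb, Cebpd, Lpl and Fabp4.

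Cebpb (chr2:167688915-167690418, plus strand) encodes C/EBPβ and was the most abundant of the 7. It was at 296, 314 and 278 TPM in Gata2cKO replicates 1, 2 and 3, against 123, 267 and 279 TPM in control replicates 1, 2 and 3. The groups overlapped, and control replicate 1 was well under the other 5 libraries. Means were 296 ± 17.9 TPM in Gata2cKO and 223 ± 86.7 TPM in control libraries (SD, n = 3 each), with a log2 fold change of 0.50 (SE 0.29, 95% interval -0.17 to 1.16, limma adjusted p = 0.306). Without control replicate 1 the log2 fold change was 0.11 (limma adjusted p = 0.348), and the ratio of mean TPM was 1.08 in place of 1.33. Control libraries 2 and 3 averaged 2.22 times the level of control library 1. The spread of Cebpb among controls, as SD over mean, was 38.9%, and 96.3% of tested genes had a smaller one.

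Cebpd (chr16:15887286-15891031, plus strand) encodes C/EBPδ, which is known to rise in acute inflammation. It was at 90.8, 94.5 and 103 TPM in Gata2cKO replicates 1, 2 and 3, against 41.1, 82.0 and 73.3 TPM in control replicates 1, 2 and 3. All Gata2cKO libraries lay above all controls, an arrangement found in this direction for 2 of the 7 genes and for 23.4% of tested genes. Means were 96.3 ± 6.52 TPM in Gata2cKO and 65.5 ± 21.5 TPM in control libraries (SD, n = 3 each). On the log2 scale the difference was 0.61 (SE 0.23, 95% interval 0.067 to 1.15), with a limma adjusted p of 0.144. The exact permutation test of the group means gave p = 0.1, the smallest that 3 samples against 3 can give. Without control replicate 1 the log2 fold change was 0.31 (limma adjusted p = 0.0627). The authors' deposited table gives Cebpd a log2 fold change of 0.49 with an adjusted p of 0.0849.

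The ratio of Cebpb to Cebpd TPM, which does not depend on the library total, was 3.26, 3.32 and 2.69 in Gata2cKO replicates 1, 2 and 3, against 3.00, 3.26 and 3.81 in control replicates 1, 2 and 3. Cebpb and Cebpd thus stood in overlapping proportions in both groups (two-sided exact permutation p = 0.6 on the log2 ratio), and control replicate 1, low for both genes, was not apart in their ratio. The ratio of Cebpb to Cebpa was less even, at 4.53, 3.46 and 4.17 in Gata2cKO replicates and 2.47, 4.49 and 4.21 in control replicates 1, 2 and 3, where control replicate 1 was the lowest (exact permutation p = 0.7).

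Cebpa (chr7:35119293-35121928, plus strand) encodes C/EBPα, which acts in the formation of fat cells and of myeloid cells. It was at 65.4, 90.6 and 66.6 TPM in Gata2cKO replicates 1, 2 and 3, against 49.9, 59.5 and 66.3 TPM in control replicates 1, 2 and 3. Gata2cKO replicate 2 was the highest library, and Gata2cKO replicate 1 lay just under control replicate 3. The log2 fold change was 0.33 (SE 0.15, 95% interval -0.03 to 0.69, limma adjusted p = 0.214). It was 0.18 without Gata2cKO replicate 2 and 0.22 without control replicate 1.

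Lpl (chr8:68880491-68907448, plus strand) had the smallest p of the 7 genes. It was at 16.7, 18.9 and 17.8 TPM in Gata2cKO replicates 1, 2 and 3, against 10.6, 15.7 and 13.7 TPM in control replicates 1, 2 and 3. All Gata2cKO libraries lay above all controls, with control replicate 2 the nearest. Means were 17.8 ± 1.13 TPM in Gata2cKO and 13.3 ± 2.56 TPM in control libraries (SD, n = 3 each), a ratio of 1.34. The difference of 0.41 on the log2 scale (SE 0.14, 95% interval 0.092 to 0.73) did not pass the threshold, with a limma adjusted p of 0.107. Without control replicate 1 the log2 fold change was 0.27 (limma adjusted p = 0.110), and in the authors' deposited table it was 0.36 with an adjusted p of 0.0839.

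Fabp4 (chr3:10204088-10208576, minus strand) was the most variable of the 7. It was at 6.27, 4.58 and 14.1 TPM in Gata2cKO replicates 1, 2 and 3, against 2.43, 9.12 and 4.72 TPM in control replicates 1, 2 and 3. Replicates of a group differed 3.08-fold in Gata2cKO and 3.76-fold in control libraries between the highest and the lowest, and the groups overlapped. Of tested genes 99.0% had a smaller relative spread among controls. The log2 fold change was 0.54 (SE 0.46, 95% interval -0.52 to 1.60, limma adjusted p = 0.483), and the interval held sizeable differences in either direction. Without control replicate 1 it was 0.16, and without Gata2cKO replicate 3 it was 0.13.

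Lpl and Fabp4 are also made by macrophages, and Fabp4 by capillary endothelium, so marker levels of those cells are given beside them. Endothelial markers summed to 641 to 757 TPM in Gata2cKO and 467 to 596 TPM in control libraries (14 of 14 markers listed, 3 of 13 tested higher, 0 lower, and Erg under 1 TPM throughout). Macrophage markers summed to 485 to 541 TPM in Gata2cKO and 369 to 460 TPM in control libraries (11 of 12 listed, 2 of 11 tested higher, 0 lower). In both lists the ranges did not overlap, and control replicate 1 had the lowest sum. Among all tested genes 5.73% were called higher and 1.74% lower, and 23.4% had all Gata2cKO above all control libraries. Endothelial calls numbered 0, 2 and 1 without Gata2cKO replicates 1, 2 and 3 and 4, 2 and 2 without control replicates 1, 2 and 3. Macrophage calls numbered 1, 0 and 0 without Gata2cKO replicates 1, 2 and 3, 2, 1 and 1 without control replicates 1, 2 and 3, and 1 under each of the 3 scalings. Their part in the values of Lpl and Fabp4 was not tested. In bulk tissue, a change in the number of cells of a type and a change in RNA per cell cannot be told apart.

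Pnpla2 (chr7:141455198-141460743, plus strand) encodes adipose triglyceride lipase, the first enzyme of triglyceride breakdown. It was at 28.4, 32.5 and 29.8 TPM in Gata2cKO replicates 1, 2 and 3, against 34.1, 25.6 and 33.0 TPM in control replicates 1, 2 and 3. The groups overlapped, with a log2 fold change of -0.022 (SE 0.12, 95% interval -0.30 to 0.26, limma adjusted p = 0.925). Lipe (chr7:25379527-25398710, minus strand) encodes hormone-sensitive lipase, which acts on diglycerides and on cholesterol esters. It was at 4.83, 5.05 and 4.51 TPM in Gata2cKO replicates 1, 2 and 3, against 4.66, 4.77 and 5.90 TPM in control replicates 1, 2 and 3. The log2 fold change was -0.072 (SE 0.10, 95% interval -0.31 to 0.17, limma adjusted p = 0.697). For both lipase genes the interval was narrower than for each of the other 5 genes. Control replicate 1 was the highest library for Pnpla2, unlike for the C/EBP and uptake genes, and the ratio of Pnpla2 to Lipe was 6.31 ± 0.393 in Gata2cKO and 6.09 ± 1.06 in control libraries (SD, n = 3 each).

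**Figure D2:**
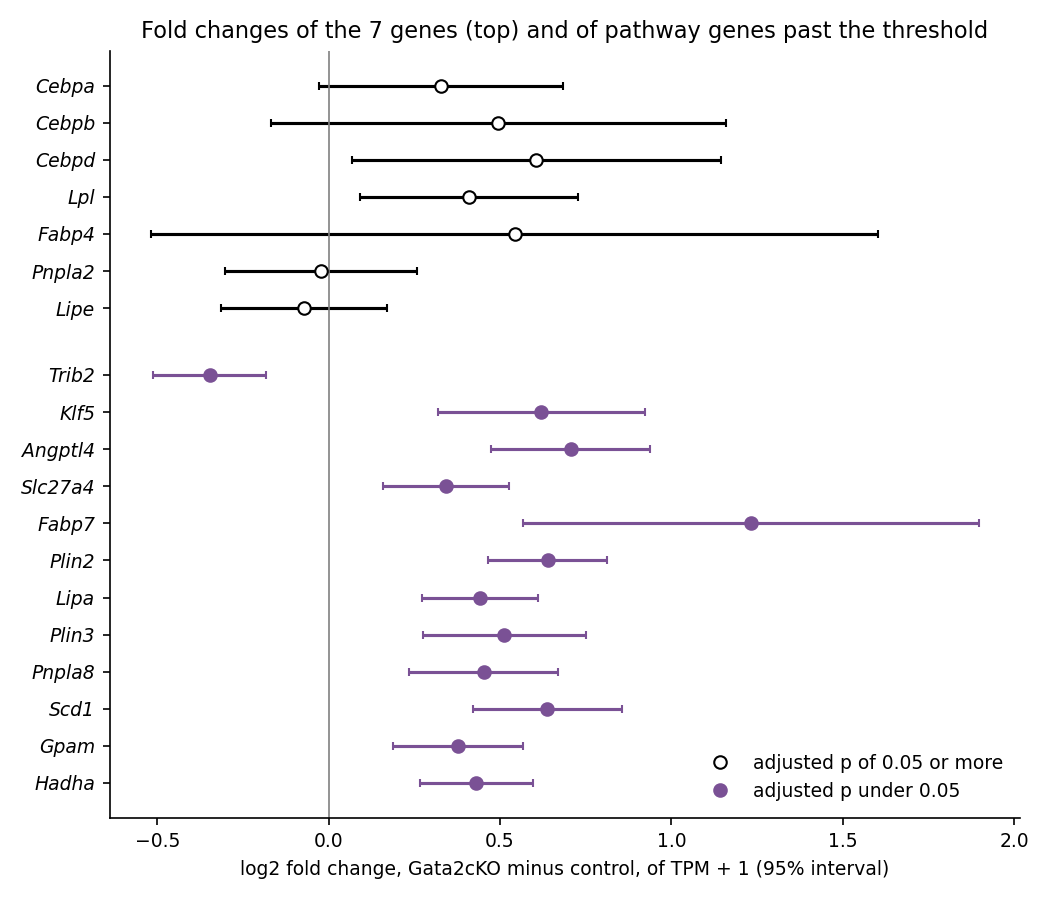
Log2 fold change of TPM + 1, Gata2cKO minus control, with its 95% interval from limma, for the 7 genes (open symbols, top) and for the 12 genes of the C/EBP and lipid lists past the threshold (filled symbols). The intervals of Cebpd and Lpl lie above 0 before adjustment over all genes, and those of Cebpa, Cebpb, Fabp4, Pnpla2 and Lipe include 0.

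Removal of single libraries left the count at 0 of the 7 genes in all 6 removals. It moved the sizes, as the plot of removals shows. For Cebpb the log2 fold change ran from 0.11 without control replicate 1 to 0.70 without control replicate 3, for Cebpd from 0.31 to 0.80, for Lpl from 0.27 to 0.53 and for Fabp4 from 0.13 to 0.94. Control replicate 1 was the lowest library for 5 of the 7 genes and for 30.4% of tested genes.

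**Figure D3:**
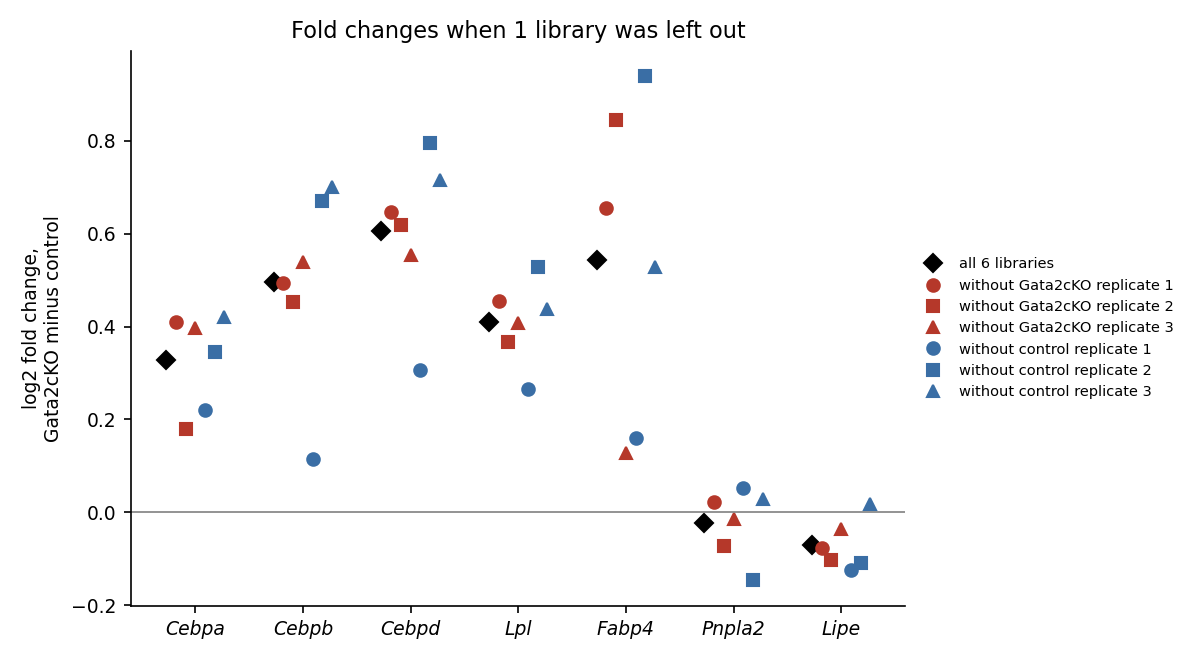
Log2 fold change of each of the 7 genes, Gata2cKO minus control, with all 6 libraries (black diamond) and with 1 library left out (red for Gata2cKO, blue for control, symbols for replicates 1 to 3). The values without control replicate 1 (blue circles) are the lowest for Cebpb, Cebpd and Lpl, at 0.11, 0.31 and 0.27.

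The C/EBP and lipid lists were written with earlier results of these data known, so their shares describe the lists and test nothing. The lists held 101 other tested genes, of 137 written and 116 listed. Of these, 11 rose (10.9%, against 5.73% of all tested genes) and 1 fell (against 1.74%) in Gata2cKO libraries, with a median log2 fold change of 0.16. Scaling touches this split, since 76.7% of the 919 genes past the threshold were higher with the TPM as deposited (705 higher, 214 lower), 54.9% with median-of-ratios scaling (487 and 400), 64.5% with upper-quartile scaling (619 and 340) and 60.5% with mitochondrially encoded genes left out of the total (430 and 281).

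Among partners of the C/EBP factors, 1 of 9 tested genes fell and 0 rose (median log2 fold change 0.052). This was Trib2, which encodes a pseudokinase that brings C/EBPα to degradation. It was at 67.2, 68.4 and 65.3 TPM in Gata2cKO replicates 1, 2 and 3, against 87.3, 82.6 and 86.4 TPM in control replicates 1, 2 and 3, with no overlap (log2 fold change -0.35, SE 0.071, limma adjusted p = 0.0314). This call was kept in 1 of the 6 removals, that of control replicate 1, and the adjusted p was highest, at 0.127, without Gata2cKO replicate 1. Among the partners that did not pass were Cebpg, a C/EBP protein without an activation domain, at 42.8 ± 4.90 TPM in Gata2cKO and 35.4 ± 3.23 TPM in control libraries (SD, n = 3 each), and Ddit3, an inhibitory C/EBP partner of the stress response, at 18.2 to 20.0 TPM in Gata2cKO and 21.7 to 27.2 TPM in control libraries. All Gata2cKO libraries lay below all controls for Trib2 and Ddit3 (10.5% of tested genes) and above them for Cebpg (23.4%).

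Regulators of fat cell formation were led by Klf5, a zinc finger factor that acts with C/EBPβ and C/EBPδ on Pparg in mouse preadipocytes. Klf5 was at 9.10, 10.2 and 12.0 TPM in Gata2cKO replicates 1, 2 and 3, against 5.63, 6.22 and 7.46 TPM in control replicates 1, 2 and 3, with no overlap (log2 difference 0.62, SE 0.13, limma adjusted p = 0.0330). It was the only one of 19 tested regulators past the threshold, and 0 fell (median 0.14). Without control replicate 1 there were 3 that rose, and with no filter or no variance trend 2. It kept its call in 2 of the 6 removals, and its adjusted p was 0.109 without Gata2cKO replicate 3. Pparg, the master regulator of fat cells, was at 0.0526 to 0.0736 TPM in Gata2cKO and 0.0186 to 0.0954 TPM in control libraries, under the minimum level for testing. C/EBP transcripts were abundant while Pparg was near 0 in every library. Of 12 fat cell markers written, Adipoq, Lep, Retn, Cfd, Plin1, Cidec, Cidea, Ucp1 and Thrsp were not among the listed genes, so their levels are unknown. The 3 listed were Slc2a4, Pck1 and Adrb3, and 0 of the 3 passed. Their summed level was 48.3 to 53.5 TPM in Gata2cKO and 41.9 to 54.3 TPM in control libraries, most of it the glucose transporter gene Slc2a4.

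Lipoprotein lipase partners and fatty acid uptake genes held 2 of 18 tested genes that rose and 0 that fell, with a median of 0.085. With the replicate number as a block, 1 was called lower. Angptl4 encodes a secreted protein that inactivates lipoprotein lipase and is known as a target of PPAR factors, hypoxia and fasting. It was at 63.5, 69.5 and 73.5 TPM in Gata2cKO replicates 1, 2 and 3, against 37.2, 45.1 and 43.2 TPM in control replicates 1, 2 and 3, a ratio of means of 1.64. The groups were well apart (log2 fold change 0.71, SE 0.10, limma adjusted p = 0.0122), and the call was kept in 5 of the 6 removals (adjusted p = 0.0526 without Gata2cKO replicate 3). Slc27a4, a fatty acid transport protein with acyl-CoA synthetase activity, was at 34.0 ± 1.94 TPM in Gata2cKO and 26.6 ± 0.941 TPM in control libraries (SD, n = 3 each; limma adjusted p = 0.0438), and kept its call in 1 of the 6 removals (adjusted p up to 0.137). Slc27a4 was not called with median-of-ratios scaling (adjusted p = 0.0642) or without mitochondrially encoded genes (0.0672). Gpihbp1, which anchors lipoprotein lipase on capillary endothelium, was at 69.0, 57.3 and 63.3 TPM in Gata2cKO replicates and 57.3, 53.6 and 48.6 TPM in control replicates 1, 2 and 3 and did not pass (limma adjusted p = 0.164). The uptake receptor gene Cd36 was at 0.904 to 1.32 TPM in Gata2cKO and 0.499 to 0.834 TPM in control libraries and was not tested. Vldlr, a lipoprotein receptor gene of the same list, was lower in all Gata2cKO than in all control libraries, as were 10.5% of tested genes. It was at 16.9 to 20.5 TPM in Gata2cKO and 21.9 to 32.1 TPM in control libraries (limma adjusted p = 0.106). Angptl8 was at 0.570 to 1.98 TPM in Gata2cKO and 1.86 to 17.0 TPM in control libraries (limma adjusted p = 0.164). Neither passed. Gpihbp1, Cd36, Vldlr and Angptl8 were named after their values were seen.

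Among other fatty acid binding proteins 1 of 6 tested genes rose and 0 fell, with a median of 0.25. Fabp7, the brain type binding protein, was at 6.27, 10.3 and 11.2 TPM in Gata2cKO replicates 1, 2 and 3, against 3.05, 5.26 and 2.02 TPM in control replicates 1, 2 and 3 (log2 fold change 1.23, SE 0.29, limma adjusted p = 0.0440). It kept its call in 1 of the 6 removals (adjusted p up to 0.141) and lost it with median-of-ratios scaling (0.0521), without mitochondrially encoded genes (0.0516) and with no filter on low values (0.0617). Fabp5, the most abundant Fabp gene here and named after its values were seen, was at 73.7 ± 5.28 TPM in Gata2cKO and 77.95 ± 1.95 TPM in control libraries (SD, n = 3 each), above Fabp4 in every library on this per-length scale.

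Lipid droplet and lipolysis genes other than Pnpla2 and Lipe had the most calls of the 7 C/EBP and lipid lists. Of 12 tested genes 4 rose and 0 fell, with a median log2 fold change of 0.37. Plin2 encodes a coat protein found on lipid droplets of most cell types and was at 32.8, 30.2 and 32.2 TPM in Gata2cKO replicates 1, 2 and 3, against 20.4, 20.1 and 19.5 TPM in control replicates 1, 2 and 3. Replicates lay close together and the groups far apart, at a ratio of means of 1.59 (log2 difference 0.64, SE 0.075, limma adjusted p = 0.00861). The call of Plin2 held in all 6 removals, with an adjusted p of 0.0495 at most, when Gata2cKO replicate 1 was left out. Plin3, a second droplet coat protein gene, was at 88.3 ± 5.50 TPM in Gata2cKO and 61.8 ± 6.88 TPM in control libraries (SD, n = 3 each; limma adjusted p = 0.0298). Lipa, the lysosomal acid lipase gene, was at 13.8 ± 0.220 TPM in Gata2cKO and 9.90 ± 0.0169 TPM in control libraries (limma adjusted p = 0.0178). Pnpla8, a mitochondrial and peroxisomal phospholipase gene of the same family as Pnpla2, was at 6.66 ± 0.561 TPM in Gata2cKO and 4.59 ± 0.292 TPM in control libraries (limma adjusted p = 0.0326). Plin3 kept its call in 2 and Lipa and Pnpla8 in 1 of the 6 removals, with adjusted p up to 0.104, 0.0820 and 0.132. Pnpla8 also lost it under each of the 3 scalings (0.0561 to 0.0728). The list had 6 genes that rose without control replicate 1 and 1 or 2 in the other removals.

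Synthesis and oxidation genes held 3 more calls. In triglyceride synthesis 2 of 19 tested genes rose and 0 fell (median 0.041), though 1 was called lower with median-of-ratios and with upper-quartile scaling. The fatty acid desaturase gene Scd1 was at 17.6 ± 1.59 TPM in Gata2cKO and 10.96 ± 0.587 TPM in control libraries (SD, n = 3 each; limma adjusted p = 0.0132). Gpam, which encodes the mitochondrial enzyme of the first acylation step, was at 8.56 ± 0.341 TPM in Gata2cKO and 6.36 ± 0.300 TPM in control libraries (limma adjusted p = 0.0363). Calls were kept in 4 removals for Scd1 and in 1 for Gpam (adjusted p up to 0.0679 and 0.143), and Gpam was not called without mitochondrially encoded genes (0.0867). Dgat1, a gene of the same list named after its values were seen, lay the other way and did not pass. It was at 28.8 ± 2.24 TPM in Gata2cKO and 38.2 ± 4.32 TPM in control libraries (log2 fold change -0.39). In fatty acid oxidation 1 of 18 rose and 0 fell (median 0.20). This was Hadha, the alpha subunit of the mitochondrial trifunctional protein, at 48.1 ± 0.623 TPM in Gata2cKO and 35.5 ± 1.19 TPM in control libraries (limma adjusted p = 0.0178, up to 0.0903 in the removals, 2 of which kept the call).

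**Figure D4:**
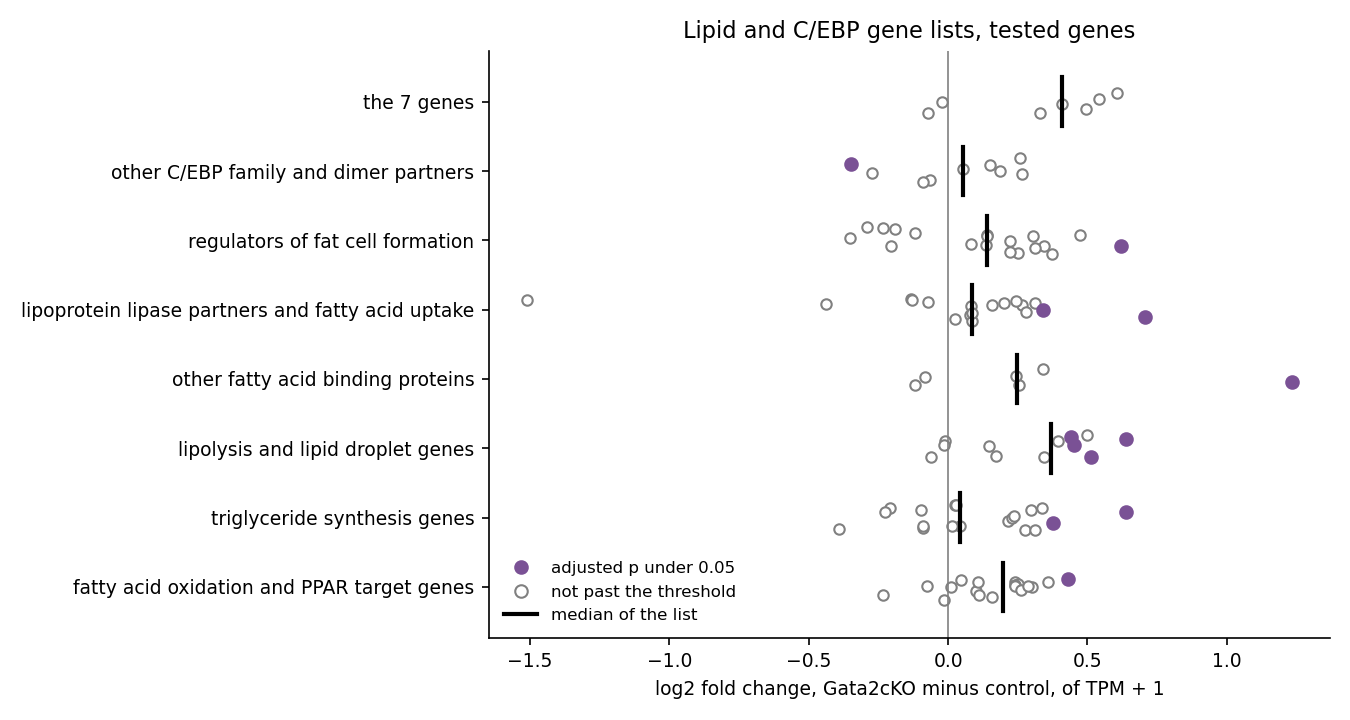
Log2 fold change of TPM + 1, Gata2cKO minus control, of the tested genes of each list, with 1 point a gene. Filled points passed an adjusted p under 0.05 and black bars mark list medians. The 7 genes have a median of 0.41 and 0 filled points, and the lipolysis and lipid droplet list has a median of 0.37 and 4 filled points.

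Stress and hormone response genes were followed because Cebpb and Cebpd respond to both kinds of signal. Of 15 tested immediate-early and stress genes 3 fell and 0 rose (median log2 fold change -0.62). Over all tested genes 1.74% were called lower and 5.73% higher in Gata2cKO libraries. Fos, part of the AP-1 factor, was at 10.2, 16.9 and 65.9 TPM in Gata2cKO replicates 1, 2 and 3, against 104, 247 and 190 TPM in control replicates 1, 2 and 3 (log2 fold change -2.84, limma adjusted p = 0.0374). Fosb fell by 3.60 (limma adjusted p = 0.0128) and Ier2 fell by 0.62 (limma adjusted p = 0.0394), both in log2 units. With no filter on low values, Fos and Ier2 were not called (0.0546 and 0.0517). These 3 kept their calls in 2, 4 and 1 of the 6 removals. The summed level of the list was 1700, 2143 and 2547 TPM in Gata2cKO replicates 1, 2 and 3, against 2336, 3830 and 3589 TPM in control replicates 1, 2 and 3, so that control replicate 1 lay among the Gata2cKO libraries for these genes. Without it 11 of the 15 fell, while the lower calls over all 12300 tested genes went from 214 to 431. In the other removals 0 to 3 of the 15 fell. Of 11 tested glucocorticoid-responsive genes 1 rose and 0 fell (median 0.25). This was Errfi1, a feedback inhibitor of EGF receptors, at 33.4 ± 5.53 TPM in Gata2cKO and 21.7 ± 1.80 TPM in control libraries (SD, n = 3 each; limma adjusted p = 0.0375, up to 0.133 in the removals and 0.0526 without mitochondrially encoded genes). The part of these responses in the C/EBP values was not tested.

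Markers of other cell types gave further context. Neutrophil and granulocyte markers, a lineage in which C/EBP factors are strongly expressed, summed to 170, 60.4 and 62.0 TPM in Gata2cKO replicates 1, 2 and 3, against 37.9, 17.6 and 11.7 TPM in control replicates 1, 2 and 3 (7 of 11 listed, 2 of 5 tested higher, 0 lower). Gata2cKO replicate 1 had the highest sum. The 2 called markers became 3 without control replicate 1, 0 in each of the other 5 removals, and 1 under each of the 3 scalings and with no filter on low values. Steroidogenic cells use Lipe to free cholesterol, and their markers summed to 19.4 to 21.6 TPM in Gata2cKO and 18.6 to 19.5 TPM in control libraries (4 of 9 listed, 0 of 2 tested called), with the defining factor Nr5a1 at 1.10 TPM or less in every library. Erythroid markers had 1 of 7 tested genes higher, duct epithelial markers 3 of 12, mesothelial markers 4 of 7, and mesenchymal markers 1 of 14 higher and 3 lower. None of the first 3 had a lower member. Of all tested genes 5.73% were higher and 1.74% lower. Krt19 is counted as higher in both the duct epithelial and the mesothelial list. Mesothelial markers summed to 573 to 670 TPM in Gata2cKO and 353 to 457 TPM in control libraries. Erythroid markers summed to 10500 to 13811 TPM in Gata2cKO and 6848 to 18257 TPM in control libraries. The counts of called markers leaned on single libraries. Without control replicate 1, 5 erythroid and 6 duct epithelial markers were higher, and in the other removals 0 erythroid and 0 or 1 duct epithelial markers. Erythroid calls were also 0 with both other filters, the other pseudocount, median-of-ratios scaling and without mitochondrially encoded genes. Without Gata2cKO replicate 2, 1 duct epithelial marker was lower. Higher mesothelial markers numbered 4 without control replicate 1 and 1 or 2 in the other removals. Lower mesenchymal markers numbered 1, 2 and 1 without Gata2cKO replicates 1, 2 and 3 and 3, 2 and 2 without control replicates 1, 2 and 3. The higher mesenchymal marker was called only without control replicate 1 among the removals, and neither with median-of-ratios scaling nor with no filter. Their part in the levels of the 7 genes was not tested.

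**Figure D5:**
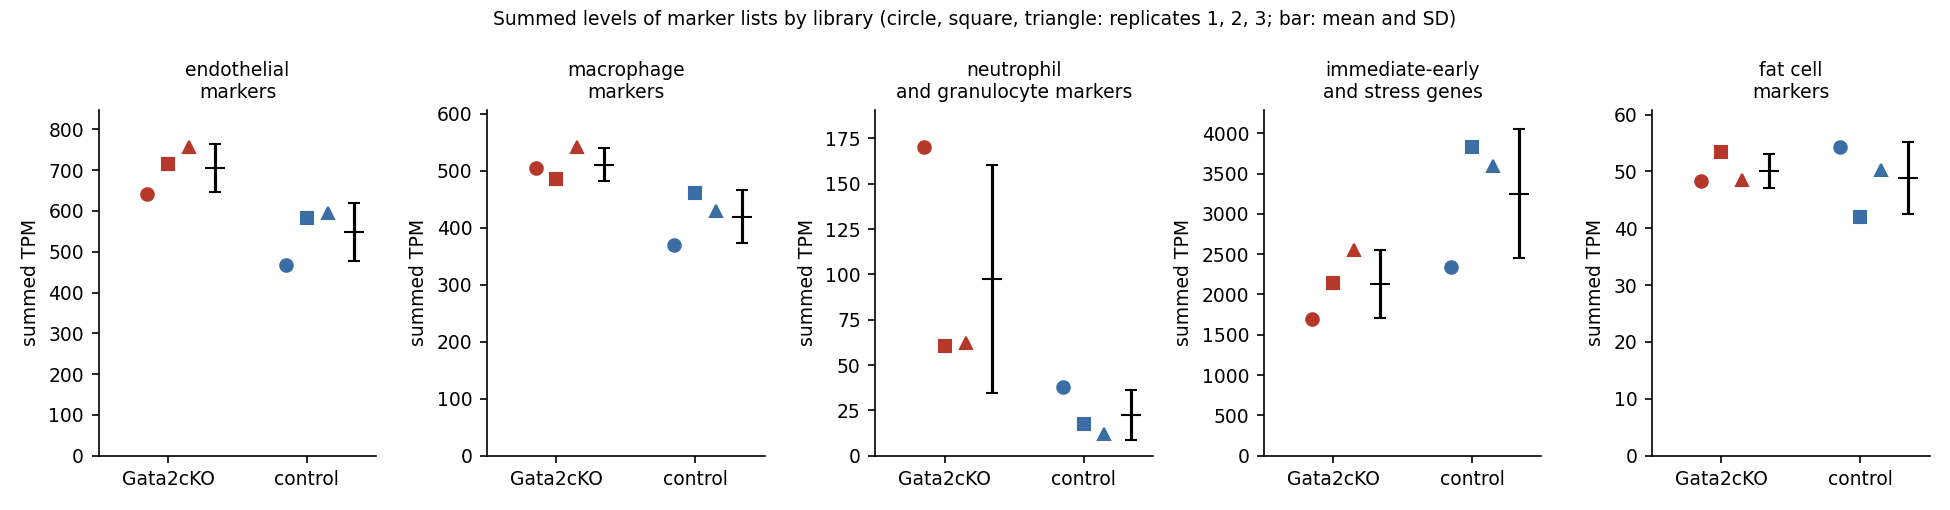
Summed TPM of 5 marker lists in each library, Gata2cKO on the left (red) and control on the right (blue), with the mean and SD (n = 3 each). Endothelial and macrophage sums were higher in all Gata2cKO than in all control libraries, and the immediate-early sums overlapped through control replicate 1 (2336 TPM). The fat cell sums, of the 3 markers listed and mostly Slc2a4, overlapped.

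The genes whose levels followed each of the 7 most closely over the 6 libraries are given as a description, by Pearson's r of log2(TPM + 1). Compared were tested genes with a standard symbol and a mean of 5 TPM or more, without mitochondrially encoded genes. For Cebpd they were Tmx1, Serbp1 and Ric8a (r = 0.997, 0.996 and 0.994), for Cebpb Dhcr7, Ppie and Fkbp9 (0.994, 0.993 and 0.993), for Cebpa Brd2, Erbb2 and Actn4 (each 0.993) and for Lpl Msl2, Aplp1 and Rpp25l (0.996, 0.995 and 0.994). An r above 0.95 was found with 156 genes for Cebpd, 174 for Cebpb, 137 for Cebpa and 130 for Lpl, so the closest genes were not set apart. For Fabp4 (Ptn, Rpf1 and Mtx2), Lipe (Mafk, Polg2 and Stk25) and Pnpla2 (Mthfsd, Pxmp4 and Cd3eap) the counts above 0.95 were 10, 11 and 6, and their closest r values were 0.987, 0.994 and 0.995. All these values share the same 6 libraries, and control replicate 1 was the lowest for each of Cebpa, Cebpb, Cebpd and Lpl.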

How the data were processed

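RNA of 6 mesonephros samples, 3 Gata2cKO and 3 control, was purified with a PicoPure kit, selected for polyadenylated RNA and primed with random hexamers, per the labels' protocols. Strandedness and the quantifier are not given in the sources used. STAR 2.7.11a, DESeq2, DESeq and GRCm38 are named per the submitters' processing notes, without roles. The authors deposited TPM values, a unit inferred because each library sums to between 997351 and 998844. The authors' deposited table also gives log2 fold changes (Gata2cKO over control), p-values and adjusted p-values. Libraries were matched to samples by library name. Genes reaching 1 TPM in 3 or more libraries were fitted by limma-trend (limma 3.58.1, R 4.3.3) on log2(TPM + 1), with group as the only term. Tests were two-sided. The model was run on simulated data as a check of the code only. How often it finds changes as small as those of the 7 genes is not given. The 7 genes and all gene lists were chosen with earlier results of these data known. The rule for named genes gave the 7 and, per list, up to 4 called genes by adjusted p, else that with the smallest p, and the most abundant cell marker. Not all genes it gave in the cell type lists are printed. Named outside it were Gata2, Cebpg, Ddit3, Pparg, Gpihbp1, Cd36, Vldlr, Angptl8, Fabp5, Dgat1, Pck1, Erg and Nr5a1, and the genes of closest r. Alternatives were 2 other filters, a pseudocount of 0.1, 3 scalings, no variance trend, a replicate block and 6 removals of a library. The genes tested stayed fixed except under other filters.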

Additional observations from a re-analysis of the deposited data

How the results depend on the processing

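None of the 7 genes passed the threshold under any of the 14 alternatives (Lipe fell below the filter of 5 TPM and was not tested there), and 5 of the 7 had a positive log2 fold change under each of the 3 scalings, the other pseudocount and the fit without a variance trend. In removals of a library the log2 fold change ran from 0.18 to 0.42 for Cebpa, 0.11 to 0.70 for Cebpb, 0.31 to 0.80 for Cebpd, 0.27 to 0.53 for Lpl, 0.13 to 0.94 for Fabp4, -0.12 to 0.019 for Lipe and -0.15 to 0.051 for Pnpla2. Lipe turned positive without control replicate 3 (0.019), and Pnpla2 without Gata2cKO replicate 1 (0.021) and without control replicates 1 (0.051) and 3 (0.029), for which the cause was not tested. The count over all genes was 919, and 116, 230 and 206 without Gata2cKO replicates 1, 2 and 3 and 1539, 259 and 274 without control replicates 1, 2 and 3. Slc2a4 changed sign with median-of-ratios scaling (-0.047), upper-quartile scaling (-0.017) and without mitochondrially encoded genes (-0.046), and ran from -0.10 to 0.11 in the removals. Hba-a1 ran from -0.17 to 0.49 and Col1a1 from -0.035 to 0.24, and none of these 3 passed in all libraries. Whether replicate numbers pair the samples cannot be told, since the labels do not say and each group holds 3 samples. The r of same-numbered deviations was 0.25, -0.073 and 0.038, and that of the other combinations ran from -0.28 to 0.21. With the replicate block 6 endothelial markers were higher and 7 immediate-early genes lower, 774 genes passed, 584 higher and 190 lower, and the lowest adjusted p of the 7 was 0.0668, for Lpl. Trib2, Slc27a4, Pnpla8 and Gpam were not called with the block (adjusted p 0.0656, 0.0686, 0.0556 and 0.0708). TPM keeps no depth, so no counting error could be given.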
